A study of Mus musculus with 6 samples.

Results

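Cd52, Cd8a, Tbx21, Laptm5, Cd6, Cd2, Cd79b and Cd3e are genes of mouse lymphocytes that were measured here in cells of a different lineage, namely day 3 cells differentiated from embryonic stem cells. The 8 genes were picked on the comparison described below, for their response or lack of response to the drug, from 18753 genes named on the arrays. They were covered by 12 probes, of which 10 were bright enough to be tested. The 3 TSA samples had received trichostatin A, an inhibitor of histone deacetylases, for 24 hours, and the 3 DMSO samples had received the solvent for 24 hours. All 6 samples carried the strain label 129/Ola, had been grown on gelatin in serum-free N2B27 medium, a medium used for neural differentiation, and came from 3 independent experiments per treatment. The dose of TSA and the name of the stem cell line are not given in the labels.

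Total RNA of each sample was labelled with Cy3 and read on 1 single-colour Agilent array. A level is the log2 of the processed signal minus the log2 of the 75th percentile of that array, so that 0 marks a bright probe. The lowest level called above background was between -6.01 and -4.86 on the TSA arrays and between -6.57 and -5.67 on the DMSO arrays. Levels of different genes come from different probes and are not set against each other. The arrays lay on 3 slides, 1 TSA and 1 DMSO array of the same replicate number on each, and the TSA array was always at the same position, so array position and treatment cannot be told apart. Between 61.1% and 69.7% of spots were well above background on the TSA arrays, against 65.6% to 72.3% on the DMSO arrays. TSA replicate 2 stood apart: its 75th percentile was 311 intensity units, against 632 to 926 on the other arrays, and its levels correlated at 0.931 and 0.939 with those of the other TSA arrays. Pairs among the remaining arrays of 1 treatment correlated at 0.984 to 0.990 across probes. RNA was taken from whole cultures, so more cells with a transcript and more transcript per cell cannot be told apart.

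Many lymphocyte genes are turned on during blood cell development, under transcription factors that act at their promoters and enhancers. Not all are silent in other cells, and in these data 5 of the 8 genes were above background on all 6 arrays, DMSO arrays included. Histone deacetylases remove acetyl groups from histones and are carried to silent genes by corepressors, and their inhibitors raise histone acetylation across the genome. T cells recognise antigen through the T cell receptor, whose signal is passed on by the CD3 chains and helped by the co-receptors CD4 and CD8, whereas B cells use surface immunoglobulin with the CD79 chains.

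Treatment was compared with limma across all tested probes, and a gene was called when its adjusted p was under 0.05. Of the 8 genes, 4 (Cd52, Cd8a, Tbx21 and Laptm5) were called higher in TSA cells, where 1.36% of the 14529 tested genes were called higher and 0.0551% lower. Counted by probe, 0.92% of 28158 were called higher and 0.0355% lower. The 8 genes were chosen on this comparison, so nothing is read from that count, and the differences below are a description with the standard error of the fit. With the slide as a block the count was 6, with Cd6 and Cd2 added, where 3.19% of tested genes were called higher and 0.145% lower. For 6 of the 8 genes every TSA array was above every DMSO array, which held for 16.4% of all tested genes and 12.6% of probes, and the reverse held for 8.29% of genes. The differences of the 8 genes had a median of 1.70, or 1.62 with Cd52 and Cd8a set against the limits described below, while the median over all tested genes was 0.08.

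**Figure D1:**
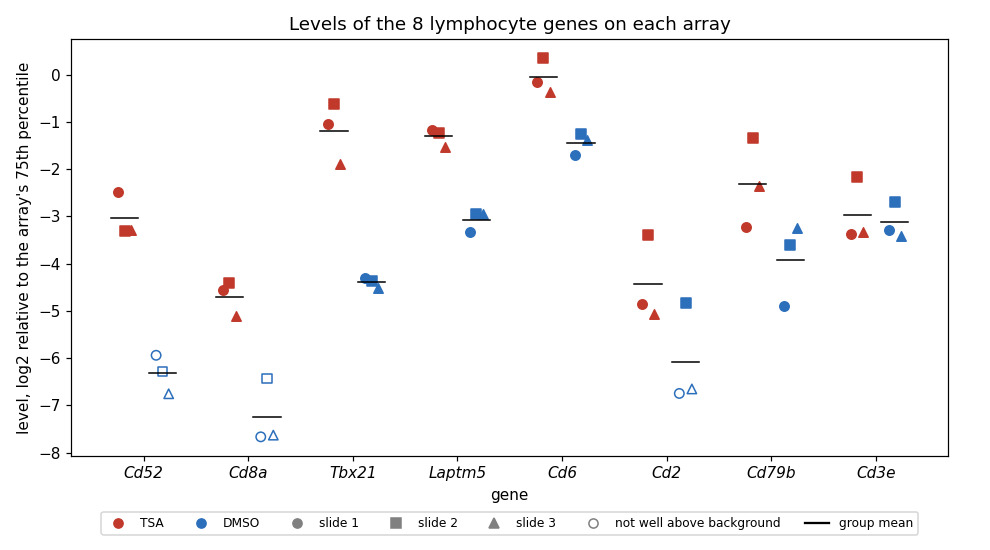
The plot gives the level of each of the 8 genes on each array (log2 relative to the array's 75th percentile), with TSA arrays in red and DMSO arrays in blue, a shape for each slide, open symbols where the probe was not well above background, and bars at group means. Cd52, Cd8a, Tbx21, Laptm5, Cd6 and Cd79b have every TSA point above every DMSO point, whereas the points of Cd3e overlap.

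Tbx21 encodes T-bet, the T-box transcription factor that directs helper T cells to the Th1 fate and acts in natural killer cells. Its level was -1.05, -0.61 and -1.89 on TSA arrays 1, 2 and 3, against -4.30, -4.38 and -4.51 on DMSO arrays 1, 2 and 3. The gene was above background on all 6 arrays, and the TSA arrays lay far above a tight DMSO group. The means were -1.18 ± 0.65 in TSA cells and -4.40 ± 0.11 in DMSO cells (SD, n = 3 each), a difference of 3.21 ± 0.34 (SE) or 9.27-fold. Within slides 1, 2 and 3 the difference was 3.25, 3.77 and 2.63.

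Cd52 encodes a short glycoprotein anchored in the membrane of lymphocytes and some other leukocytes. It measured -2.49, -3.32 and -3.29 on the 3 TSA arrays, against -5.94, -6.28 and -6.75 on the 3 DMSO arrays. The probe was above background on every TSA array and on no DMSO array, so the DMSO level is only a limit. The TSA mean was 8.29-fold above a limit set for the DMSO arrays. For such a limit the DMSO level was taken, array by array, as the lowest signal called above background, or as the probe's own signal where that was higher. A probe can miss the background call at a higher signal than that, so this fold is not a strict minimum. Measured means were -3.03 ± 0.47 in TSA cells and -6.32 ± 0.41 in DMSO cells (SD, n = 3 each).

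Cd8a encodes the alpha chain of the CD8 co-receptor of cytotoxic T cells and had 3 probes. One probe gave -4.56, -4.42 and -5.11 in TSA cells, all above background, against -7.66, -6.43 and -7.63 in DMSO cells, none of them above background. Against a limit of the same kind, the TSA mean of this probe was 2.61-fold higher. The other 2 probes were above background on 0 arrays, so their differences of 0.43 and 0.41 were measured below background. The probe at 0.43 is assigned to the same transcript as the first probe and had 10 spots on each array, against 1 spot for the first. The Cd8a difference thus rests on 1 of 3 probes, whose processed signal was 28.5, 14.5 and 25.6 units on the TSA arrays and 3.12, 7.57 and 4.68 units on the DMSO arrays.

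Laptm5 encodes a lysosomal membrane protein of blood cells that lowers the amount of antigen receptor at the surface of T and B cells. Levels were -1.16, -1.24 and -1.53 in the TSA samples and -3.33, -2.95 and -2.95 in the DMSO samples. Both groups were narrow and well separated, and all 6 arrays were above background. The difference was 1.77 ± 0.22 (SE), or 3.41-fold, and 2.17, 1.72 and 1.43 within the 3 slides. A second Laptm5 probe differed by 1.84 ± 0.25 and was called too.

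Cd6 encodes a scavenger-receptor-type glycoprotein of T cells that tunes signalling at the contact with antigen-presenting cells. It was at -0.16, 0.36 and -0.36 in TSA cells, against -1.70, -1.26 and -1.38 in DMSO cells. The groups did not overlap, all arrays were above background, and the difference was 1.39 ± 0.26, or 2.62-fold. It was not called in the fit of treatment alone, but was with the slide as a block. A second Cd6 probe, designed on another transcript, was at -3.48, -3.17 and -4.67 in TSA cells and -4.72, -4.04 and -4.57 in DMSO cells. There the groups overlapped, slide 3 differed by -0.10, and no call was made in either fit.

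Cd2 encodes an adhesion molecule of T cells and natural killer cells. TSA arrays gave -4.86, -3.39 and -5.07, all above background, and DMSO arrays gave -6.75, -4.83 and -6.65, of which only replicate 2 was above background. The groups overlapped because both arrays of slide 2 were high, but within the slides the difference was 1.89, 1.44 and 1.58. On slides 1 and 3 these set a measured TSA level against a DMSO level that was not above background. The fitted difference was 1.64 with an SE of 0.66, and the SE was 0.19 with the slide as a block, where the gene was called, and both fits use those DMSO values as they stand.

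Cd79b encodes one of the signalling chains of the B cell receptor. Its level was -3.22, -1.35 and -2.35 in TSA cells, against -4.90, -3.61 and -3.24 in DMSO cells. The lowest TSA array was only 0.02 above the highest DMSO array. The difference of 1.61 ± 0.60 was not called in either fit, and within slides it was 1.68, 2.26 and 0.90.

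Cd3e encodes the epsilon chain of CD3, without which the T cell receptor does not reach the surface. The TSA arrays gave -3.38, -2.17 and -3.33, and the DMSO arrays -3.29, -2.68 and -3.41. All 6 arrays were above background, and the groups overlapped. The difference was 0.17 ± 0.39, with -0.09, 0.51 and 0.07 within the 3 slides, and it was not called in either fit.

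**Figure D2:**
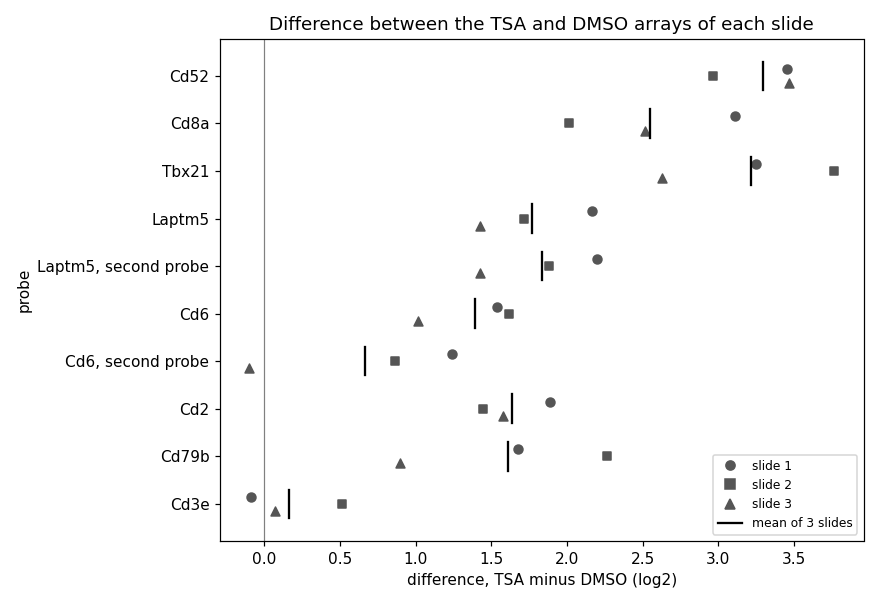
The plot gives, for each of the 10 tested probes, the TSA minus DMSO difference (log2) on each of the 3 slides, with a bar at the mean. All slides of Cd52, Cd8a, Tbx21, Laptm5, Cd2 and Cd79b lie above 0, while Cd3e lies at -0.09 on slide 1 and the second Cd6 probe at -0.10 on slide 3.

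With 3 arrays per treatment the precision is limited. Without TSA replicate 2, Cd52, Tbx21 and Laptm5 were still called, Cd8a lost its call and Cd6 gained one, and leaving out any other single array left 0 by limma, with 2019 to 3327 of the 28158 tested probes at an unadjusted p under 0.05. Background correction by normexp was run together with quantile normalization, and added an offset of 50 units to every signal. Such an offset makes the log2 differences of dim probes smaller. Differences were then 0.87 for Cd52, 0.29 for Cd8a, 1.62 for Tbx21, 0.97 for Laptm5, 0.30 for Cd2 and 0.73 for Cd79b. Only Laptm5 was called there. In the series table of log2 values deposited by the authors, Cd52 differed by 2.0, Cd8a by 1.13 and Cd2 by 0.74.

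The genomic surroundings of the members were examined in promoter windows of the RefSeq table (assembly GRCm38.p6), each holding 250 bases before to 50 bases after an annotated start. The table held windows for 4 of the 8 genes, namely Cd8a, Tbx21, Laptm5 and Cd3e. Cd52, Cd6, Cd2 and Cd79b were not matched. Tbx21 had 62.0% G and C and 21 CpG dinucleotides in its window. Its CpG ratio, the number observed over that expected from base composition, was 0.754, at the 75.3rd percentile of 32851 windows. Cd8a had 3 CpG and a ratio of 0.198, at the 28.4th percentile. Laptm5 and Cd3e had ratios of 0.310 and 0.333, close to each other and below the median of 0.384 over all windows.

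The sequences upstream of the annotated gene spans are shown for 3 genes. They set the CpG-rich Tbx21 start beside those of Cd8a and Cd3e, whose windows had CpG ratios at the 28.4th and 45.3rd percentiles. They run 5′ to 3′ on the strand of the gene, with each CpG in capitals. Cd8a is chr6:71373177-71373426 on the plus strand, Tbx21 is chr11:97115332-97115581 on the minus strand and Cd3e is chr9:45009664-45009861 on the minus strand.
Tbx21: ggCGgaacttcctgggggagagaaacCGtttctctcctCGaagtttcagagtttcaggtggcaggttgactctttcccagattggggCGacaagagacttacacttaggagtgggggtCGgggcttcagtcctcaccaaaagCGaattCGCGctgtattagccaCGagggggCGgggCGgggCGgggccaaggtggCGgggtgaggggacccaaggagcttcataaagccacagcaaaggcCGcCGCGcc
Cd8a: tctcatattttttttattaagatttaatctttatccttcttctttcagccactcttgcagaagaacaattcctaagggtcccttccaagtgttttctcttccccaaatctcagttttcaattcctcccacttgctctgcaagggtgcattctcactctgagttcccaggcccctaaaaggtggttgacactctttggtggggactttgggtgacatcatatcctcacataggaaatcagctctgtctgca
Cd3e: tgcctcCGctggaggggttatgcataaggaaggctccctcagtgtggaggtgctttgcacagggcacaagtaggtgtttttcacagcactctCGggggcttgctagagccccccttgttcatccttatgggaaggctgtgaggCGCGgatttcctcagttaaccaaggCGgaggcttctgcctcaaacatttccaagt
The Tbx21 stretch holds 16 CpG in 250 bases, that of Cd8a 0 in 250 bases and that of Cd3e 5 in 198 bases.

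Motifs were searched as exact letters on both strands of the whole windows. The Tbx21 window held 3 copies of GGGCGG, the core of the GC box bound by Sp factors, which 35.7% of all windows hold. GGAAGT, a core bound by ETS factors, was found once each in Tbx21, Laptm5 and Cd3e, and in 23.8% of all windows. Laptm5 also held 1 TATAAA, the TATA box, present in 13.6% of windows. TGTGGT, bound by RUNX factors, and GGTGTGA, part of the T-box element, were in none of the 4 windows, against 16.8% and 3.98% of all windows. The Cd8a window held none of the 5 motifs.

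**Figure D3:**
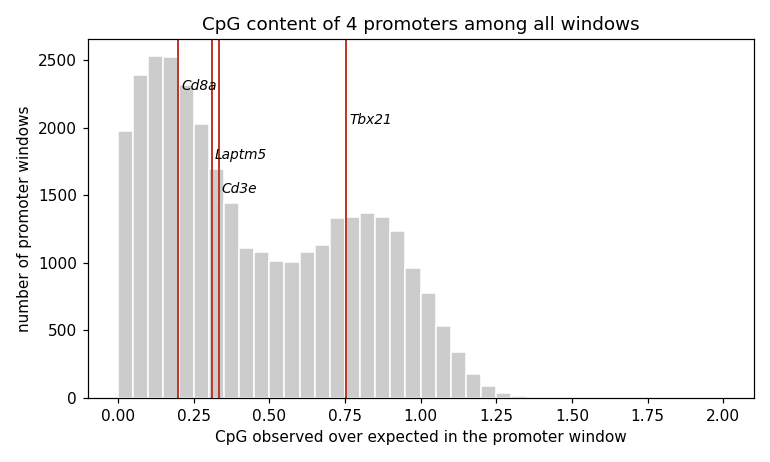
The histogram counts all promoter windows of the RefSeq table by their CpG ratio (observed over expected), and the lines mark Cd8a, Laptm5, Cd3e and Tbx21. Tbx21 at 0.754 lies in the upper hump and the other 3, at 0.198 to 0.333, in the lower one.

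Genes beside the 8 members on the chromosome were taken as the 3 nearest annotated genes on each side. Of 48 such genes, 25 had a probe and 20 were tested. None was called by limma in either direction, with or without the block. An unadjusted p under 0.05 was found for 2 in either direction, Tcam1 (higher) and Rnf103 (lower). Over all tested genes, 12.1% were higher in TSA cells at that unadjusted p, a share that leaves out lower genes. The differences of the 20 neighbours ran from -0.72 to 1.49 with a median of 0.18. Of these 20, 14 had a higher mean in TSA cells, where 58.1% of all tested genes did. Next to Cd52, Crybg2 differed by 0.19 and Ubxn11 by 0.26, and next to Tbx21, Tbkbp1 differed by 0.22. Rmnd5a and Rnf103, near Cd8a, differed by -0.45 and -0.72. The highest value was that of Tcam1 near Cd79b, 1.49 ± 0.29 with a limma adjusted p of 0.079. Cd3d and Cd3g, the CD3 chain genes that lie beside Cd3e, were above background on 0 of 6 arrays.

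Other genes of the T cell receptor and its co-receptors were drawn from a list of 28 with a probe. Among them 13 were tested, 0 were called by limma in either direction, 6 had a higher mean at an unadjusted p under 0.05, and 12 had a higher mean in TSA cells, with a median difference of 0.75. Pdcd1, which encodes the inhibitory receptor PD-1, was at -3.39, -3.24 and -4.54 in TSA cells, against -7.25, -6.18 and -6.07 in DMSO cells. It was above background on 3 TSA arrays and 1 DMSO array. The fitted difference of 2.78 ± 0.47, which takes the other DMSO values below background as they stand, had a limma adjusted p of 0.058. Skap1, an adaptor that links the receptor to integrins, differed by 2.37 ± 0.69 (limma adjusted p = 0.219, and 0.044 with the block). Cd7 differed by 1.19 ± 0.43. The co-receptor gene Cd4 differed by 0.17 ± 0.35. Lck, the kinase that binds both co-receptors, differed by -0.56 ± 0.26, the only lower mean among the tested genes of this list. The kinase gene Zap70 differed by 0.75 ± 0.26, with groups that did not overlap, and was not called in either fit. In this list 11 genes were above background on no array, among them Cd28, Ctla4 and Lcp2.

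Genes reported to be switched on by T-bet or used in cytotoxic killing formed a list of 28 with a probe, of which 5 were tested and 0 were called by limma, with 1 at an unadjusted p under 0.05. All 5 had a higher mean in TSA cells, by 0.13 to 0.98. Nkg7, a granule protein of killer cells, differed by 0.97 ± 0.50 and Ctsw, a protease of these cells, by 0.92 ± 0.33. Hlx, a homeobox factor that acts with T-bet, differed by 0.98 ± 0.58. Hlx and Ctsw were above background on 3 TSA arrays and 2 DMSO arrays. On no array were 19 of these genes above background, including Ifng, the interferon gene that T-bet activates, and Il12rb2, Gzmb and Fasl.

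B cell receptor and B lineage genes other than Cd79b numbered 25 with a probe, of which 12 were tested and 0 called by limma, with 4 higher at an unadjusted p under 0.05. Cr2, complement receptor 2 of B cells, was at -4.09, -4.27 and -3.85 in TSA cells, against -5.64, -5.39 and -5.30 in DMSO cells, and the groups were apart, although only 2 of the DMSO arrays were above background. Its difference of 1.37 ± 0.22 was called with the block (limma adjusted p = 0.044) and without TSA replicate 2 (0.026), but not in the fit of treatment alone on all arrays. The adaptor gene Blnk differed by 0.91 ± 0.36 and the kinase gene Lyn by 0.81 ± 0.31. Ms4a1, Cd22, Blk and Btk were among 10 genes of the list above background on no array.

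Lymphoid transcription factors other than Tbx21 had 22 tested genes of 25 with a probe. None was called by limma, 4 were higher and 1 lower at an unadjusted p under 0.05, and the median difference was 0.29. Stat4, which carries the interleukin-12 signal, was at 0.81, 0.03 and 0.38 in TSA cells and -0.53, -1.25 and -0.84 in DMSO cells. It differed by 1.28 ± 0.30 and was called only with the block (limma adjusted p = 0.043). Spib, an ETS factor of B cells, differed by 1.24 ± 0.29 and Batf by 1.06 ± 0.27, neither of them called. Ikzf1, a zinc finger factor of all lymphocytes, differed by 0.41 ± 0.39 and Gata3, which directs T cells to the Th2 fate, by -0.54 ± 0.72. Those last 2 genes were above background on 2 arrays of each treatment only. Foxp3, Pax5 and Irf4 were above background on no array.

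Cytokine and homing receptor genes of lymphocytes had 12 tested genes of 22 with a probe, 0 called by limma, 6 higher at an unadjusted p under 0.05 and a median difference of 0.60. Itgae and Itgb7 encode the chains of the integrin that holds T cells to epithelium. Itgae was at -0.99, -1.33 and -1.22 in TSA cells and -2.41, -2.68 and -2.30 in DMSO cells, a difference of 1.29 ± 0.21 that was not called in the fit of treatment alone but was with the block (limma adjusted p = 0.045). Itgb7 differed by 1.51 ± 0.26 and Il4ra by 1.26 ± 0.43, neither of them called in either fit. Il2ra and Il7r were above background on no array.

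Over these 5 lymphoid lists together, 64 non-member genes were tested and 0 were called by limma in either direction, with 21 higher and 1 lower at an unadjusted p under 0.05, at which 12.1% of all tested genes were higher. With the slide as a block 4 were called higher (Skap1, Cr2, Stat4 and Itgae), or 6.25% of them, where 3.19% of all tested genes were. The median difference was 0.43 and 82.8% had a higher mean in TSA cells, where 58.1% of all tested genes did. In 32.8% every TSA array was above every DMSO array, where the share over all tested genes was 16.4%.

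**Figure D4:**
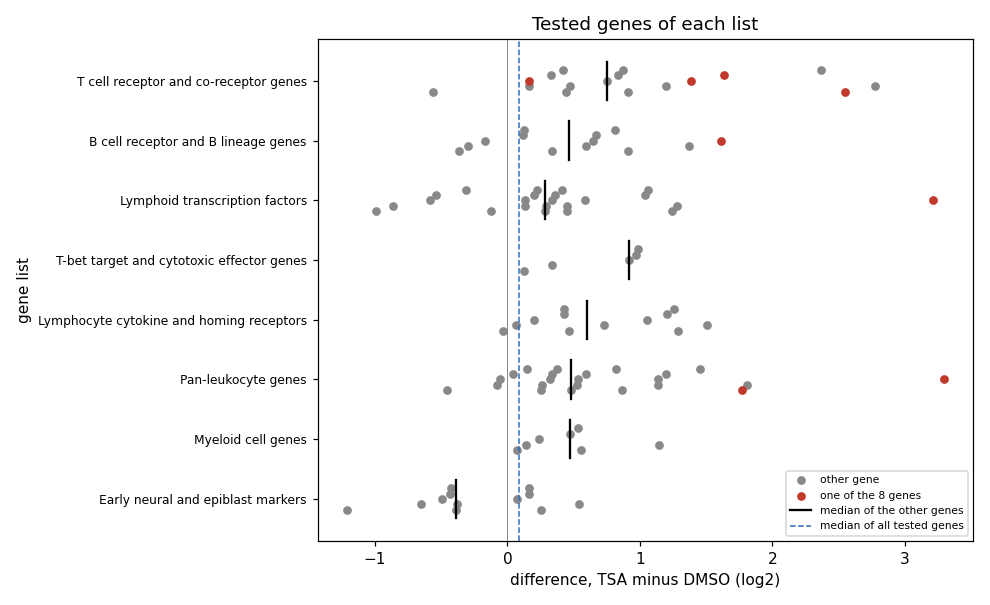
Each point is the TSA minus DMSO difference (log2) of a tested gene, by list, with the 8 members in red, bars at the median of the other genes and a dashed line at the median of all tested genes, 0.08. Medians of the 7 blood cell lists lie between 0.29 and 0.92, and that of the early neural and epiblast markers lies at -0.39.

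Genes shared by leukocytes in general were examined to see which blood cell transcripts moved with the 8 members. Among 21 tested non-member genes of this list, 2 rose in TSA cells, where 1.36% of all tested genes were called higher. Vav1, a signalling protein of blood cells, was at -3.04, -3.09 and -3.52 in TSA cells, against -4.58, -4.83 and -4.61 in DMSO cells, a difference of 1.46 ± 0.22 (limma adjusted p = 0.045). Inpp5d, the lipid phosphatase SHIP1, was at 1.48, 1.66 and 1.48 in TSA cells, against 0.26, 0.35 and 0.41 in DMSO cells, a difference of 1.20 ± 0.19 (limma adjusted p = 0.048). In both genes the groups were well apart. Arhgdib differed by 1.81 ± 0.54 and was called only with the block (limma adjusted p = 0.045). Vav1 and Inpp5d lost their calls when any single array but TSA replicate 2 was left out, without slide 2, and with median centring or no filter. Vav1 also lost its call with quantile normalization, with normexp and quantile normalization together, in the authors' table and with a variance trend. Inpp5d kept its call in each of those.

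The defining marker of nucleated blood cells, Ptprc (CD45), had 3 probes that were above background on 0 TSA arrays, and 1 of them was so on 1 DMSO array. Coro1a, an actin-binding protein of leukocytes, and Vav1 were above background on all 6 arrays, as were the myeloid markers Csf1r and Mpo. Spi1, the master regulator of myeloid and B cells, was above background on 1 TSA and 1 DMSO array. Of 9 T cell markers with a probe, 6 passed the background limit on each TSA array and 5 on each DMSO array, while Cd3d and Cd3g passed it nowhere. The marker that made this difference was Cd8a, itself a member chosen on this comparison, so nothing is read from it. The members Cd3e and Cd79b were also among the T and B cell markers. B cell markers numbered 6, of which 2 passed on each TSA array and 3 on each DMSO array, and Ms4a1, Pax5 and Blk passed nowhere. No marker of natural killer cells was above background on all arrays of either treatment. All 7 early neural and epiblast markers, in contrast, were above background on all 6 arrays.

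Levels were summed over all non-member genes of a list with a probe, tested or not, on the linear scale relative to the 75th percentile. Each gene entered by its probe brightest on average, also where that probe was below background. The pan-leukocyte sum was 15.4 to 23.3 on TSA arrays and 11.7 to 13.5 on DMSO arrays. Its largest term on every array was Gmfg, with log2 levels of 2.95, 3.14 and 2.62 in TSA cells and 2.43, 2.45 and 2.23 in DMSO cells. The Gmfg groups did not overlap, and the gene was not called in either fit. The T cell sum was 8.27 to 15.4 on TSA arrays and 6.06 to 9.30 on DMSO arrays. Most of it on each array came from Thy1, with log2 levels of 3.14, 3.36 and 2.56 in TSA cells and 2.71, 1.91 and 1.81 in DMSO cells. The Thy1 groups overlapped, and the gene was not called in either fit. The B cell sum was 2.33 to 4.49 on TSA arrays and 1.78 to 2.25 on DMSO arrays. The myeloid sum was 0.455 to 0.868 on TSA arrays and 0.424 to 0.532 on DMSO arrays. The highest TSA value of these 4 sums was that of replicate 2 each time. Without it the TSA sums reached 17.1 for pan-leukocyte, 11.1 for T cell, 2.52 for B cell and 0.574 for myeloid genes. Of 7 tested myeloid genes 0 were called by limma, with 1 at an unadjusted p under 0.05, and all 7 had a higher mean in TSA cells. Mpo, the granule peroxidase, differed by 1.14 ± 0.27 (limma adjusted p = 0.137). The sum for early neural and epiblast markers was 28.3 to 46.3 on TSA arrays and 32.1 to 63.3 on DMSO arrays. Its largest term on every array was Pou5f1, which differed by -0.50 ± 0.54 and was not called in either fit. Pax6, a neural factor, had mean levels of -2.98 in TSA cells and -1.77 in DMSO cells and so added little to the sum. It differed by -1.21 ± 0.24 (limma adjusted p = 0.082). The part of other cell types in the differences of the 8 genes was not tested.

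Across the 6 arrays, which share slides and treatments, the levels of Cd52, Cd8a, Tbx21, Laptm5 and Cd6 correlated with one another at 0.890 to 0.976 (Pearson). Cd3e correlated with those 5 at 0.116 to 0.457, with Cd79b at 0.550 and with Cd2 at 0.772. The members were chosen for responding or not, which shapes these values. The tested genes most like each member over the 6 arrays had correlations of 0.992 to 1.000. For Cd52 they were Gm20767, C130074G19Rik and Slc10a4, and for Tbx21 Hrh1, Krt12 and Tex101. For Cd8a they were Cracdl, Pxylp1 and Srd5a2, and for Laptm5 Chrdl2, AW551984 and Gxylt2. Cd6 was followed most closely by Pdlim3, Hspa2 and Klrg2, and Cd2 by Wnt3a, Sp5 and Kremen1. Cd79b was followed by Oas1a, Tmem171 and Oas1f, and Cd3e by Padi1, Olfr740 and Irs4. With 6 arrays and 14529 genes, high values of this kind are a ranking and carry no test.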

How the data were processed

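Per the file headers, the deposited array files hold intensity values from single-colour Agilent scans, and Feature Extraction (version 10.7 per the submitters' processing notes) gave a processed signal that was background-subtracted but not scaled between arrays. The authors' series table holds log2 values whose centring is not stated, with column medians of 6.31 to 6.34 and correlations of 0.982 to 0.992 with log2 of the processed signal, and it served as an alternative.

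Control spots and outlier spots (57 to 84 per array) were left out. The log2 processed signal minus the 75th percentile of the array was averaged over the spots of a probe. Probes well above background on at least 3 of 6 arrays were tested (28158 of 41174), and 27484 probes were named through the reference gene table. For a gene with several tested probes, the one brightest on average was used. Treatment was fitted with limma 3.58.1 in R 4.3.3 (lmFit and eBayes, two-sided), with p-values adjusted by Benjamini-Hochberg over the 28158 probes and a threshold of 0.05. Errors of differences are moderated standard errors. Code was tested on simulated data, and Python 3.11.15 was used for tables and figures.

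The replicate number is the slide number. Deviations from the group means of the TSA and DMSO arrays of a slide correlated at 0.484, 0.614 and 0.585, against -0.568 to 0.0916 between slides. The numbers therefore pair the samples, and blocked values are given where they change a call. Calls and standard errors given without mention of the block come from the fit of treatment alone, which leaves this pairing out. The 8 genes and the gene lists were chosen with earlier results of these data known. Genes named from a list are those past the threshold, by smallest adjusted p, or otherwise up to 3 with the largest difference. Genes most like each member (3 each), neighbouring genes and Ptprc, Spi1, Ikzf1 and Gata3 were named as well. Genes listed as above background on no array, and Cd4, Lck, Zap70, Thy1, Gmfg and Pou5f1, were named as examples after their values were seen. Alternatives covered scaling, background correction, filters, the block, variance trend, outlier spots, probe choice and left-out arrays.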

Additional observations from a re-analysis of the deposited data

How the results depend on the processing

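The count of called genes among the 8 members (4) was 6 with the replicate block, 3 with quantile normalization, median centring, the trended variance and the authors' table, and 4 with outlier spots kept. It was 1 with normexp and quantile normalization together, 2 with no filter, 2 with probes above background on all 6 arrays, where 3 members are no longer tested, and 0 without slide 2, where 4995 probes had an unadjusted p under 0.05. Leaving out 1 array gave 0 to 4. Probes called higher (259) numbered 617 with the replicate block, 188 with the trended variance, 148 with quantile normalization, 137 with median centring, 127 with normexp and quantile normalization together, 142 in the authors' table, 58 with no filter, 0 without slide 2, and 0 to 575 with 1 array left out. Probes called lower (10) numbered 41 with the replicate block, 0 with no filter and without slide 2, and 0 to 54 with 1 array left out. Other lymphoid genes called higher (0) numbered 4 with the replicate block, 2 with the filter on all 6 arrays, and 0 to 3 with 1 array left out, where the 3 came without TSA replicate 2. Pan-leukocyte genes called higher (2) numbered 3 with the replicate block, 1 with quantile normalization, normexp with quantile normalization, the trended variance and the authors' table, 0 with median centring, no filter and without slide 2, and 0 to 2 with 1 array left out. The block changed no other call named in the report. Differences of 7 members kept their sign under every alternative run, whereas Cd3e was below 0 in 3, down to -0.23. Cd8a averaged over its probes differed by 1.13 and Cd6 by 1.03. The Gata3 difference ran from -1.20 to 0.067 with 1 array left out, and was above 0 without TSA replicate 1. That of Cd4 ran from -0.18 to 0.39 with 1 array left out, was below 0 without TSA replicate 2, and was -0.031 without slide 2. Some alternatives use smaller sets of probes or arrays, and the normexp alternative adds an offset of 50 units to every signal. The cause of these changes was otherwise not tested.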
